A study of Mus musculus with 30 samples.

Results

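The claudins described here are 8 genes, *Cldn1*, *Cldn2*, *Cldn3*, *Cldn4*, *Cldn5*, *Cldn6*, *Cldn7* and *Cldn12*, read from a table of 55450 genes in mouse liver. They were chosen by symbol as members of the claudin family known from liver epithelium and endothelium, and they are 8 of the 35 claudin genes of that table. All 8 were found, each as 1 row.

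The study read mRNA from whole liver of male mice in 3 experiments. Each held 5 *Cebpa* fl/fl mice (genotype Cre-) and 5 mice with *Cebpa* deleted in hepatocytes (genotype Cre+), 30 libraries in 6 groups with 1 library per mouse. All mice carried floxed *Cebpa* alleles, came from lines backcrossed to C57BL/6N and ate a diet rich in fat, cholesterol and fructose (HFCFD). In HFCFD2W, the Cre+ mice were *Cebpa* ΔHep, in which an albumin promoter drives a constitutive Cre, and both genotypes had 2 weeks of diet with no tamoxifen in the label. In HFCFD8W+T10D and HFCFD12W+T10W, the Cre+ mice were *Cebpa* ΔHep,ERT2, whose albumin-driven Cre acts after tamoxifen, and both genotypes received the diet and tamoxifen. The labels give 8 weeks of diet and 10 days of tamoxifen for the former. For the latter the mice had 22 weeks of diet with tamoxifen for the last 10 weeks. The ages of the mice are not given in the labels, and whole liver was read, so a larger share of cells of a type and more RNA per cell of that type cannot be told apart. Experiments differed in Cre line, diet time and tamoxifen time together and are called batches by the submitters, so these cannot be told apart between experiments.

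Claudins are membrane proteins that join neighbouring cells into tight junction strands, and their mix sets which ions and how much water pass between cells. In liver these strands separate the bile canaliculus between hepatocytes, and the lumen of the bile duct, from the blood side. *Cldn1* and *Cldn3* code for sealing claudins of hepatocytes and duct cells, *Cldn2* for a claudin that forms pores for cations and water, *Cldn4* and *Cldn7* for claudins typical of ducts and other simple epithelia, *Cldn6* for a claudin best known from embryonic epithelia, *Cldn5* for the main claudin of endothelium, and *Cldn12* for a claudin found in many tissues.

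In the mm10 (GRCm38) annotation all 8 are protein-coding. *Cldn4* (ENSMUSG00000047501.3, chr5:134945119-134946934, minus strand) and *Cldn3* (ENSMUSG00000070473.4, chr5:134986214-134987472, plus strand) are single-transcript neighbours 39279 bases apart. *Cldn7* (ENSMUSG00000018569.12) is at chr11:69964779-69967885 and *Cldn6* (ENSMUSG00000023906.3) at chr17:23679249-23682446. *Cldn1* (ENSMUSG00000022512.3) is at chr16:26356642-26371841, *Cldn5* (ENSMUSG00000041378.2) at chr16:18776847-18778262, *Cldn2* (ENSMUSG00000047230.6) at chrX:139800828-139811386 and *Cldn12* (ENSMUSG00000046798.14) at chr5:5489537-5514958. Only *Cldn3* overlaps another annotated gene, the antisense gene *Wbscr25*, which held 0 counts in every library.

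The promoters of *Cldn4*, *Cldn7* and *Cldn3*, the members tested by edgeR that were higher in *Cebpa* ΔHep,ERT2 livers after 10 weeks of tamoxifen, are shown as the 250 bases before the RefSeq start (GRCm38.p6), 5′ to 3′ on the strand of the gene. They were searched on both strands for TTGCNNAA (a C/EBP-like core), AACCGGTT (a Grainyhead-like site) and CAGGTG (a Snail-type E-box), and capitals mark a match.
Cldn4 (chr5:134946935-134947184, minus strand): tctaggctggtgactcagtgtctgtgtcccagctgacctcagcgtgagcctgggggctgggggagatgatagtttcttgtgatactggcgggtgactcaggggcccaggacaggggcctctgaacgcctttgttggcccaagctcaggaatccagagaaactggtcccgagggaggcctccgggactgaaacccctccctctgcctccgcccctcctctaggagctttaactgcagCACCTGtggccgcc
Cldn7 (chr11:69964529-69964778, plus strand): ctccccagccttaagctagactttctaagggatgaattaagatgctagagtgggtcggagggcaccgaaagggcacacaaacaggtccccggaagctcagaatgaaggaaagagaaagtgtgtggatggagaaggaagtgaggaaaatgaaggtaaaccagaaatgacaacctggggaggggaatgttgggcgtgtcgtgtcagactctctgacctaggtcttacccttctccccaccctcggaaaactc
Cldn3 (chr5:134985964-134986213, plus strand): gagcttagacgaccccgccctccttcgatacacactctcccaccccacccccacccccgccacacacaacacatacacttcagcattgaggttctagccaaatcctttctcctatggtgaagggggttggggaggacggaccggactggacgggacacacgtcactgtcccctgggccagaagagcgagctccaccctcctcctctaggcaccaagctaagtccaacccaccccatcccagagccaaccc
The E-box letters CAGGTG, here read on the opposite strand, stood 14 bases before the start of *Cldn4*, and 17.2% of all 32851 windows of this length in the RefSeq table hold them. The windows of *Cldn7* and *Cldn3* printed above hold none of the 3 motifs. A further start of *Cldn7*, inside the gene, had 2 E-box matches, 97 and 57 bases before it, and the window of *Cldn6* had 1 at 93 bases. The C/EBP-like letters, in 9.56% of all windows, and the Grainyhead-like letters, in 0.116%, were in none of the 11 windows of the 8 genes. A match of letters is a description of the window and not a site.

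Counts are RSEM expected counts, which were whole numbers for all 8 claudins in all 30 libraries, and library totals ran from 7996123 to 10257347. Levels are given as CPM, counts scaled to the library total after TMM, a trimmed-mean normalization set over the 30 libraries, or as TPM, a length-corrected share of transcripts, where genes are compared with each other. Genotypes were compared within each experiment by edgeR's quasi-likelihood test, each adjusted p is Benjamini-Hochberg adjusted over all genes tested, and a gene passed at an adjusted p under 0.05. *Cebpa* itself was lower in Cre+ livers of every experiment, from 177 ± 17.7 to 4.74 ± 0.903 CPM (SD, n = 5 and 5) in HFCFD2W, from 144 ± 13.4 to 17.2 ± 5.93 CPM in HFCFD8W+T10D and from 114 ± 23 to 21.3 ± 1.97 CPM in HFCFD12W+T10W, with adjusted p of 3.9e-11, 4.1e-06 and 9.4e-08. TMM factors ran from 0.806 to 1.38 and were highest in Cre+ livers of HFCFD12W+T10W. Without them the median log2 difference over all genes tested, 0.01 in each experiment, became 0.03, 0.19 and 0.38 in HFCFD2W, HFCFD8W+T10D and HFCFD12W+T10W, and each claudin difference in CPM below is relative to the TMM scale. In HFCFD12W+T10W 3411 genes were higher and 2960 lower with TMM, against 7031 and 963 with library totals, and in HFCFD8W+T10D 1231 and 821 against 2022 and 384.

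By length-corrected level, *Cldn12*, *Cldn3*, *Cldn2* and *Cldn1* made up most of the summed TPM of the 8 claudins in these livers. Other claudins are outside this sum. In *Cebpa* fl/fl mice of HFCFD2W, the 8 genes summed to 103 ± 7.98 TPM (SD, n = 5), of which *Cldn12* held 31.1% ± 2.27, *Cldn3* 30.4% ± 2.81, *Cldn2* 24% ± 1.86 and *Cldn1* 11.9% ± 2.2. *Cldn5* held 1.99% ± 0.524, and *Cldn7*, *Cldn6* and *Cldn4* held 0.396%, 0.141% and 0.0169%. In Cre+ livers of HFCFD12W+T10W the sum was 122 ± 12.8 TPM against 88.3 ± 8.59 in *Cebpa* fl/fl mice, with no overlap (102 to 137 against 78.1 to 98.2 TPM). On TPM the median log2 difference of all genes tested there was 0.38 as well, so the sum shares its direction with the shift of all genes. There *Cldn7* held 5.81% ± 1.35 and *Cldn4* 2.56% ± 1.71, against 0.527% ± 0.59 and 0.0382% ± 0.0853 in the *Cebpa* fl/fl mice. The share of *Cldn12* was 20.8% ± 3.73 against 29.2% ± 2.57. The effective length by which counts of *Cldn7* are divided for TPM varied between libraries of HFCFD12W+T10W. It was 367 to 1097 bases in *Cebpa* fl/fl and 718 to 1106 bases in Cre+ mice, so the share of *Cldn7* also moves with this estimate. The shares describe the mix and were not tested.

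**Figure D1:**
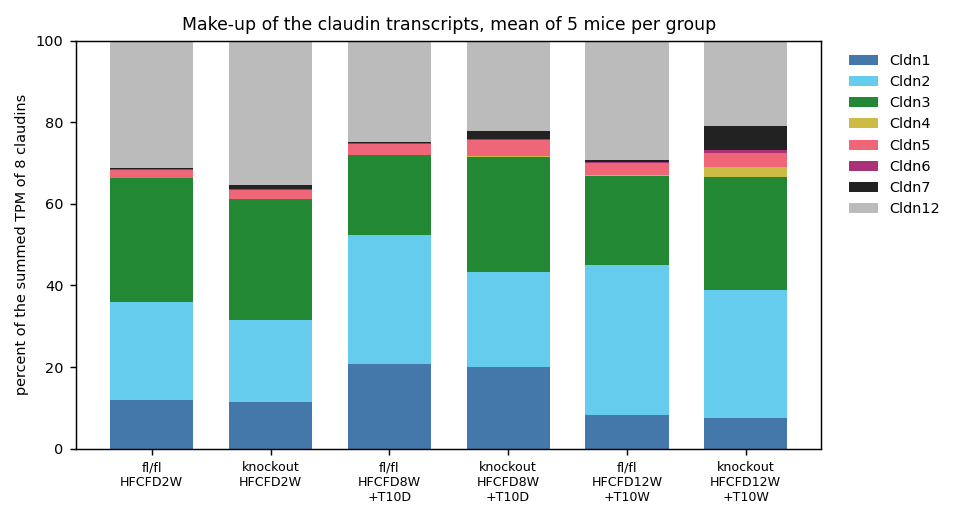
Stacked bars give the percent of the summed TPM of the 8 claudins held by each gene (vertical axis, percent), as the mean of 5 mice in each of the 6 groups (horizontal axis). *Cldn7* and *Cldn4* form visible bands in the knockout bar of HFCFD12W+T10W, 5.81% and 2.56%, and are under 1% each in every *Cebpa* fl/fl bar.

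The duct-type claudins *Cldn4* and *Cldn7* and the embryonic-type *Cldn6* were at or near 0 in *Cebpa* fl/fl livers of all 3 experiments and were higher in Cre+ livers of HFCFD12W+T10W. *Cldn7* held 1, 0, 3, 1 and 6 counts in the *Cebpa* fl/fl mice of that experiment and 43, 34, 52, 47 and 60 counts in the *Cebpa* ΔHep,ERT2 mice. The groups do not overlap, and every Cre+ mouse lay far above the highest Cre- mouse. *Cldn7* rose from 0.237 ± 0.241 to 4.08 ± 0.658 CPM, a log2 fold change of 4.03 (SE 0.40, adjusted p = 5.2e-06). *Cldn7* passed in all 10 fits that each left out 1 mouse, with log2 fold changes from 3.71 to 4.74.

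*Cldn4* held 0, 0, 0, 0 and 2 counts in the *Cebpa* fl/fl mice of HFCFD12W+T10W and 20, 19, 44, 22 and 78 counts in the *Cebpa* ΔHep,ERT2 mice. A single control mouse thus gave both control counts, and the 5 Cre+ mice spread from 1.74 to 6.31 CPM. The ratio of the summed counts, 183 against 2, was 71 on the TMM scale, with a 95% exact interval of 19.4 to 590 that covers counting error only. *Cldn4* rose with an adjusted p of 4.5e-05. Its fitted log2 fold change of 5.82 (SE 0.76) ran from 5.38 to 8.02 when 1 mouse was left out, and it passed in all 10 of those fits.

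*Cldn6* held 0, 2, 0, 1 and 1 counts in the *Cebpa* fl/fl mice of HFCFD12W+T10W and 11, 13, 9, 9 and 13 counts in the *Cebpa* ΔHep,ERT2 mice. Every Cre+ mouse was above every Cre- mouse, at 0.76 to 1.2 CPM against at most 0.227. *Cldn6* was under the low-count filter, so its mean log2 CPM was compared by a two-sided exact permutation test over every arrangement of the mice, which gave p = 0.00794, the smallest p this design allows. The ratio of summed counts, 55 against 4, was 10.7 with a 95% exact interval of 3.94 to 40.5, and a fit without the filter gave a log2 fold change of 3.28 (SE 0.56, adjusted p = 1.7e-04). This was 1 of 7 such exact tests, and their p-values are not adjusted.

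**Figure D2:**
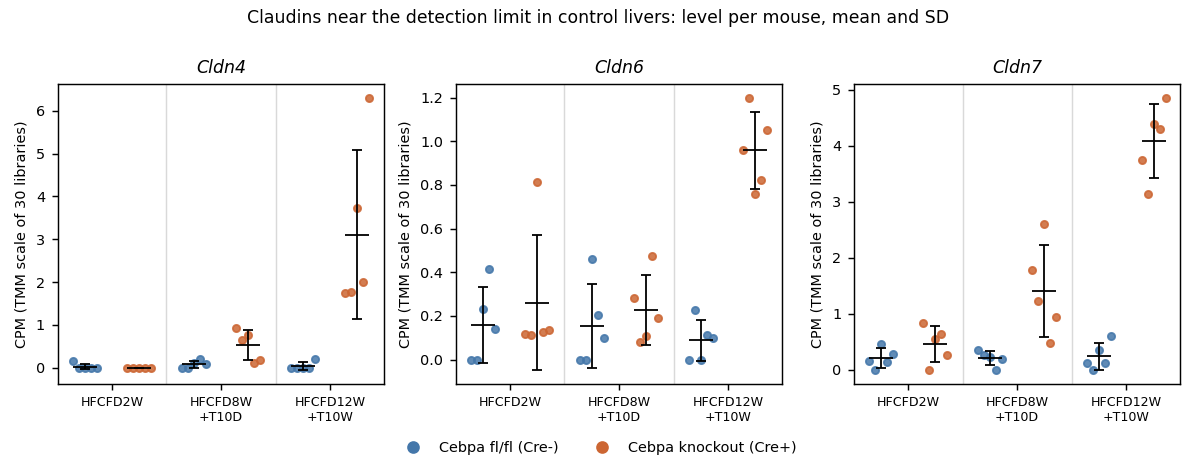
Each point is the CPM of *Cldn4*, *Cldn6* or *Cldn7* (vertical axis, CPM on the TMM scale of 30 libraries) in 1 mouse, by experiment (horizontal axis), with the mean and SD of 5 mice in black. In HFCFD12W+T10W all knockout points lie above all *Cebpa* fl/fl points for each of the 3 genes.

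After 10 days of tamoxifen the same 3 genes were low, and *Cldn7* and, with overlap between genotypes, *Cldn4* were higher in Cre+ livers. In HFCFD8W+T10D, *Cldn7* held 3, 2, 2, 0 and 2 counts in *Cebpa* fl/fl mice and 19, 15, 24, 4 and 10 counts in *Cebpa* ΔHep,ERT2 mice, with no overlap. *Cldn4* held 0, 0, 1, 2 and 1 counts against 10, 8, 7, 1 and 2, with overlap in the last 2 Cre+ mice. The ratio of summed counts was 7.06 (95% exact interval 3.52 to 16.1) for *Cldn7* and 6.17 (2.16 to 24.2) for *Cldn4*.

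Neither gene passed the low-count filter of HFCFD8W+T10D. By the exact permutation test *Cldn7* gave p = 0.00794 and *Cldn4* p = 0.0317, and without the low-count filter their log2 fold changes were 2.73 (SE 0.58, adjusted p = 0.00417) and 2.45 (SE 0.77, adjusted p = 0.0466). The call of *Cldn4* rests on few mice, since its exact p was 0.0635 in 6 of the 10 tests that left out 1 mouse. *Cldn6* held 0, 0, 4, 2 and 1 counts against 3, 1, 1, 4 and 2, overlapping groups with an exact permutation p of 0.341.

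Cre+ replicate 4 was the lowest *Cebpa* ΔHep,ERT2 mouse of HFCFD8W+T10D for both *Cldn7* and *Cldn4*. It also had the lowest summed cholangiocyte markers of the 5, 48.9 CPM against 56 to 58.4 in the others, the highest summed hepatocyte markers, 153479 against 92387 to 120984 CPM, and 12.9 CPM of *Cebpa*, within the 11.1 to 25.1 CPM of its group. Without it, the exact permutation p of *Cldn4* was 0.0317 and that of *Cldn7* 0.0159, the latter the smallest that 4 against 5 mice allow.

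In HFCFD2W the 3 genes were near the detection limit in both genotypes. *Cldn7* held 1, 0, 4, 1 and 2 counts in *Cebpa* fl/fl mice and 7, 0, 4, 5 and 2 in *Cebpa* ΔHep mice, a ratio of 2.04 with a 95% exact interval of 0.845 to 5.43 (exact permutation p = 0.317). Without Cre+ replicate 3, the library with 0 counts, the exact permutation p was 0.0476. *Cldn4* held 1 count in the 5 *Cebpa* fl/fl libraries together and 0 in the 5 *Cebpa* ΔHep libraries, and a count of 0 allows up to 3 counts, or 0.337 to 0.405 CPM, in each. *Cldn6* held 6 counts against 10 (exact permutation p = 0.5). With so few counts, only large differences of these genes could have been detected in HFCFD2W.

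The increase of *Cldn7* was larger in HFCFD12W+T10W than in HFCFD2W in a fit of all 30 libraries, by 2.98 on the log2 scale (SE 1.03, adjusted p = 0.0285). Without *Cebpa* fl/fl replicate 3 of HFCFD2W, which holds 4 of the 8 control counts of that experiment, the difference was 2.42 (adjusted p = 0.161), and leaving out 1 mouse at a time kept the call in 28 of 30 fits. For *Cldn4* the effects in HFCFD12W+T10W and HFCFD2W differed by a fitted 7.34 (SE 3.11, adjusted p = 0.0752), with adjusted p of 8.0e-04 by DESeq2 and 1.9e-06 by limma on TPM, and the fitted size depends on the 0 counts of HFCFD2W. Between HFCFD12W+T10W and HFCFD8W+T10D the effects on *Cldn7* differed by 1.26 (SE 0.94, adjusted p = 0.434) and those on *Cldn4* by 3.30 (SE 1.49, adjusted p = 0.166). This call too depended on the method, with an adjusted p of 0.00236 for *Cldn4* from limma on TPM. Of the 7 claudins in that fit, 3 passed for HFCFD12W+T10W against HFCFD2W, where 30.7% of 12964 genes did, 1 passed for HFCFD8W+T10D against HFCFD2W (11.2% of genes) and 0 passed for HFCFD12W+T10W against HFCFD8W+T10D (10.5% of genes). In the last of these, 2 of 7 claudins, *Cldn4* and *Cldn12*, had an unadjusted p under 0.05 (0.0361 and 0.0315), and DESeq2 also called 0.

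Markers of cholangiocytes, the cells that line bile ducts, moved with these genes. Their summed level over 13 markers ran from 26.1 to 33.4 CPM in *Cebpa* fl/fl and from 149 to 208 CPM in *Cebpa* ΔHep,ERT2 livers of HFCFD12W+T10W, from 26.3 to 37.6 and from 48.9 to 58.4 CPM in HFCFD8W+T10D, and from 20.5 to 29 and from 32.2 to 48 CPM in HFCFD2W. Of the markers tested, 12 of 12 were higher in HFCFD12W+T10W, 6 of 9 in HFCFD8W+T10D and 1 of 4 in HFCFD2W, and none was lower. Among all genes tested 27.4%, 10.3% and 8.6% were higher, in the same order. The median log2 fold changes of the tested markers were 3.50, 0.96 and 0.45, against 0.01 over all genes tested. Markers near 0 in Cre- livers, such as *Tspan8*, entered the test only through high Cre+ livers. Such markers could hardly be called lower, so these counts and medians lean upward by design. The largest by level in HFCFD12W+T10W were *Pkhd1*, a cilium gene (12.2 to 31.9 CPM), *Bicc1* (4.38 to 37.4), *Tspan8* (0.465 to 18.9) and *Epcam* (0.82 to 17.6). At most 1 of the 13 markers was at 0 in all libraries of a group.

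Set against those markers mouse by mouse, *Cldn7* was 2.1% to 2.66% of their sum in the 5 *Cebpa* ΔHep,ERT2 livers of HFCFD12W+T10W, 0.971% to 4.55% in those of HFCFD8W+T10D and 0% to 2.18% in the *Cebpa* ΔHep livers of HFCFD2W. *Cldn4* was 1.13% to 3.16%, 0.243% to 1.61% and 0% in the same groups. *Cldn6* was 0.365% to 0.804%, 0.144% to 0.971% and 0.266% to 2.41%. The ranges of *Cldn7* and *Cldn6* overlap between these Cre+ groups, while that of *Cldn4* was 0% in HFCFD2W. In *Cebpa* fl/fl livers of HFCFD12W+T10W *Cldn7* was 0% to 2.05%, *Cldn4* 0% to 0.683% and *Cldn6* 0% to 0.678%, so the genotypes do not overlap for *Cldn7* and *Cldn4* and overlap for *Cldn6*. In those of HFCFD8W+T10D *Cldn7* was 0% to 1.11% and *Cldn4* 0% to 0.772%, and both overlap the Cre+ range. In those of HFCFD2W *Cldn7* was 0% to 1.61% and *Cldn4* 0% to 0.725%. These percentages were not tested. Whether the number of duct cells has a part in the levels of these claudins was not tested.

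**Figure D3:**
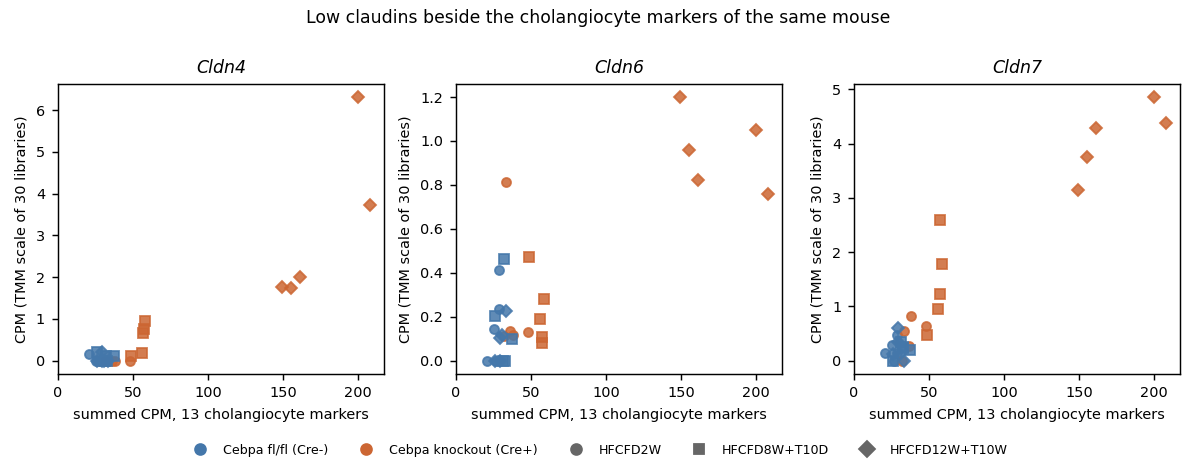
Each point is 1 mouse, with the summed CPM of 13 cholangiocyte markers on the horizontal axis and the CPM of *Cldn4*, *Cldn6* or *Cldn7* on the vertical axis, coloured by genotype and shaped by experiment. The 5 knockout mice of HFCFD12W+T10W lie apart from the other 25, at 149 to 208 CPM of markers.

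Markers of gallbladder and gut epithelium were looked at because these tissues also express *Cldn4* and *Cldn7*. Of 10 such genes, 1, 1 and 2 were tested in HFCFD2W, HFCFD8W+T10D and HFCFD12W+T10W, with *Fabp2* higher in HFCFD8W+T10D (96.5 to 124 CPM) and *Vil1*, a microvillus gene, higher in HFCFD12W+T10W (0.044 to 2.18 CPM). Between 6 and 7 of the 10 were at 0 in all libraries of a group. The summed level of the 10 in HFCFD12W+T10W was 63.6 to 96.9 CPM in *Cebpa* fl/fl and 64.2 to 91.6 CPM in *Cebpa* ΔHep,ERT2 mice. Most of that sum was *Fabp2*, at means of 81.7 and 71.4 CPM, so it says little about the other genes of the list. Whether such tissue has a part in the levels of *Cldn4* and *Cldn7* was not tested. Of 9 pancreatic acinar genes, 1 was tested in each experiment and it was lower in HFCFD12W+T10W. Of 6 mesothelial genes, whose sum was 1.31 to 47.5 CPM in the other 25 libraries, 1 *Cebpa* ΔHep,ERT2 liver of HFCFD12W+T10W, replicate 3, had 88.5 CPM against 4.53 to 21.4 in the other 4 of its group. Without that mouse *Cldn7*, *Cldn4* and *Cldn3* passed in that experiment too.

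*Cldn3*, a sealing claudin next to *Cldn4* on chromosome 5, was higher in Cre+ livers of both inducible experiments, and its difference there was tested against that of HFCFD2W. In HFCFD2W it was at 32.5, 44.5, 30, 33.8 and 37.2 CPM in *Cebpa* fl/fl mice and at 32.5, 28.4, 33.2, 24.7 and 22.8 CPM in *Cebpa* ΔHep mice. In HFCFD8W+T10D it was at 19.5, 14.2, 28.3, 19.7 and 16.1 CPM against 31.9, 25.7, 27.8, 22.3 and 32.6. In HFCFD12W+T10W it was at 19.5, 15.5, 14.7, 16.3 and 17.8 CPM against 22.8, 23.6, 27.9, 15.9 and 20.5. The groups overlap in each experiment, by 1 control mouse in HFCFD8W+T10D and by 1 Cre+ mouse in HFCFD12W+T10W.

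The log2 fold change of *Cldn3* was -0.33 (SE 0.13, adjusted p = 0.0944) in HFCFD2W, 0.54 (SE 0.17, adjusted p = 0.0491) in HFCFD8W+T10D and 0.44 (SE 0.14, adjusted p = 0.0159) in HFCFD12W+T10W. The middle value is close to the threshold: *Cldn3* passed in 2 of the 10 fits of HFCFD8W+T10D that left out 1 mouse, with log2 fold changes from 0.43 to 0.70, and its adjusted p was 0.057 by limma on TPM. In HFCFD12W+T10W it passed in all 10, with 0.34 to 0.54. The effect in HFCFD8W+T10D exceeded that in HFCFD2W by 0.85 (SE 0.22, adjusted p = 0.0117), and the effect in HFCFD12W+T10W exceeded it by 0.73 (SE 0.22, adjusted p = 0.0135). Both differences passed in all 30 fits that left out 1 mouse. Between the inducible experiments the effects differed by -0.12 (SE 0.22, adjusted p = 0.797).

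The control level of *Cldn3* also differed, at 35.6 ± 5.63 CPM in *Cebpa* fl/fl mice of HFCFD2W and 19.6 ± 5.39 CPM in those of HFCFD8W+T10D, a log2 difference of -0.86 (SE 0.16, adjusted p = 7.1e-05). It was 16.8 ± 1.9 CPM in *Cebpa* fl/fl mice of HFCFD12W+T10W. The Cre+ means were 28.3 ± 4.63, 28.1 ± 4.31 and 22.1 ± 4.4 CPM, so the Cre+ groups lay closer to each other than the controls did. In the order of group means, every neighbouring pair overlaps.

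*Cldn2*, the pore-forming claudin, was lower in *Cebpa* ΔHep livers of HFCFD2W. It was at 69.5, 88.2, 73.1, 65.3 and 78.5 CPM in *Cebpa* fl/fl mice and at 43.9, 60.5, 52.6, 48.2 and 40.8 CPM in *Cebpa* ΔHep mice, with no overlap. The log2 fold change was -0.60 (SE 0.11, adjusted p = 0.00273), and it passed in all 10 fits that left out 1 mouse and under every scaling tried. In HFCFD8W+T10D *Cldn2* was at 63.7, 79.4, 91.2, 85.1 and 103 CPM against 87.3, 67.6, 52.9, 34.4 and 78.2 (log2 fold change -0.38, SE 0.21, adjusted p = 0.243). In HFCFD12W+T10W it was at 86, 88.4, 68.4, 75.6 and 60.5 CPM against 72.7, 76.9, 77.2, 51 and 59.2 (log2 fold change -0.12, SE 0.13, adjusted p = 0.463), and this last difference turned to 0.24 with library totals in place of TMM. The groups of both inducible experiments overlap. The effect on *Cldn2* in HFCFD12W+T10W differed from that in HFCFD2W by 0.44 (SE 0.25, adjusted p = 0.183), and by 0.83 (adjusted p = 0.0276) with library totals. Its 6 group means, from 49.2 to 84.6 CPM, overlap between all neighbours in their order.

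*Cldn12* was lower in Cre+ livers of HFCFD12W+T10W. There it was at 75.3, 69.7, 60.8, 76.7 and 66.3 CPM in *Cebpa* fl/fl mice and at 53, 44.2, 53, 53.2 and 45.2 CPM in *Cebpa* ΔHep,ERT2 mice, with no overlap. It fell by 0.44 on the log2 scale (SE 0.08, adjusted p = 7.8e-04) and passed in all 10 fits that left out 1 mouse. This fall is relative to the TMM scale: with library totals the log2 difference was -0.08 (adjusted p = 0.4) and with TPM -0.04 (adjusted p = 0.758), where the median of all genes was 0.38.

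In HFCFD2W *Cldn12* was at 110, 102, 106, 116 and 103 CPM against 101, 98.4, 99.1, 96 and 93.2, groups that do not overlap but differ by only -0.14 (SE 0.06, adjusted p = 0.126). In HFCFD8W+T10D it was at 67.9, 82.9, 76.1, 71.9 and 72.3 CPM against 63.5, 57.7, 59.2, 60 and 72.5 (log2 fold change -0.23, SE 0.09, adjusted p = 0.0951). The only overlap came from Cre+ replicate 5, without which the adjusted p was 0.0323. The effect in HFCFD12W+T10W differed from that in HFCFD2W by -0.35 (SE 0.11, adjusted p = 0.0138), but by -0.22 (adjusted p = 0.112) with upper quartile scaling, -0.04 (adjusted p = 0.886) on TPM and 0.04 (adjusted p = 0.837) with library totals. Among *Cebpa* fl/fl mice, *Cldn12* was lower in HFCFD8W+T10D than in HFCFD2W by a log2 difference of -0.53 (SE 0.08, adjusted p = 2.7e-06).

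*Cldn1*, a sealing claudin that is indispensable for the skin barrier, varied more between experiments than between genotypes. In HFCFD2W it was at 37, 45.3, 41.3, 50.4 and 30.4 CPM in *Cebpa* fl/fl mice and at 32.2, 62.1, 23, 23.6 and 22.4 CPM in *Cebpa* ΔHep mice. In HFCFD8W+T10D it was at 60.7, 40.4, 76.6, 64.9 and 57.6 CPM against 54.5, 46.8, 41.3, 48.8 and 109. In HFCFD12W+T10W it was at 26, 18.2, 22.7, 8.72 and 16.9 CPM against 16.2, 20.9, 19.9, 17.6 and 13.4. The genotypes overlap in each experiment, and 1 Cre+ mouse stands above all others in both HFCFD2W (replicate 3) and HFCFD8W+T10D (replicate 5).

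The log2 fold changes of *Cldn1* were -0.31 (SE 0.26, adjusted p = 0.446), 0.01 (SE 0.25, adjusted p = 0.977) and -0.03 (SE 0.23, adjusted p = 0.93) in HFCFD2W, HFCFD8W+T10D and HFCFD12W+T10W. Without Cre+ replicate 3 the difference in HFCFD2W was -0.69 (adjusted p = 0.00977), the lowest adjusted p of the 10 fits that left out 1 mouse. Without Cre+ replicate 5 that in HFCFD8W+T10D was -0.33 (adjusted p = 0.168). Among *Cebpa* fl/fl mice, *Cldn1* was lower in HFCFD12W+T10W than in HFCFD8W+T10D by a log2 difference of -1.70 (SE 0.28, adjusted p = 1.9e-04), and higher in HFCFD8W+T10D than in HFCFD2W by 0.56 (SE 0.27, adjusted p = 0.0954), which did not pass but did with library totals (0.77, adjusted p = 0.0366) and with TPM (0.78, adjusted p = 0.049). Of the 7 claudins in the fit of 30 libraries, 2 passed between the control groups of HFCFD8W+T10D and HFCFD2W, where 43.6% of genes did, and 1 between those of HFCFD12W+T10W and HFCFD8W+T10D, where 11.4% did.

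*Cldn5*, the endothelial claudin, had low and variable levels, and its genotypes overlap in every experiment. It was at 1.63, 2.37, 3.03, 2.9 and 3.41 CPM against 2.84, 1.01, 2.97, 3.71 and 2.01 in HFCFD2W. In HFCFD8W+T10D it was at 2.32, 2.98, 5.33, 4.06 and 1.67 CPM against 4.31, 5.35, 4.23, 3.44 and 4.94. In HFCFD12W+T10W it was at 1.66, 2.38, 2.99, 2.87 and 3.43 CPM against 2.53, 2.96, 3.29, 2.55 and 3.24.

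The log2 fold changes of *Cldn5* were -0.10 (SE 0.31, adjusted p = 0.851), 0.47 (SE 0.27, adjusted p = 0.272) and 0.17 (SE 0.20, adjusted p = 0.517). The last became 0.54 (adjusted p = 0.0363) with library totals and 0.55 (adjusted p = 0.0287) with TPM, where the median of all genes was 0.38. The summed level of 18 endothelial markers overlapped between genotypes in each experiment, at 213 to 281 and 215 to 338 CPM in HFCFD2W, 311 to 367 and 222 to 356 CPM in HFCFD8W+T10D and 209 to 369 and 260 to 293 CPM in HFCFD12W+T10W. Of 17 tested, 1 was higher in HFCFD2W (8.6% of all genes tested) and 1 lower in HFCFD8W+T10D (6.85%). In HFCFD12W+T10W 3 were higher and 2 lower, where 27.4% and 23.8% of all genes tested were. The lower were the sinusoidal genes *Stab2* (45.5 to 30.3 CPM) and *Clec4g* (37.4 to 25.7 CPM). The higher were *Vwf* (8.46 to 12.5 CPM), *Emcn* (2.79 to 3.87 CPM) and *Ecscr* (1.67 to 4.32 CPM), the last outside the 4 most abundant and named after its values were seen.

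**Figure D4:**
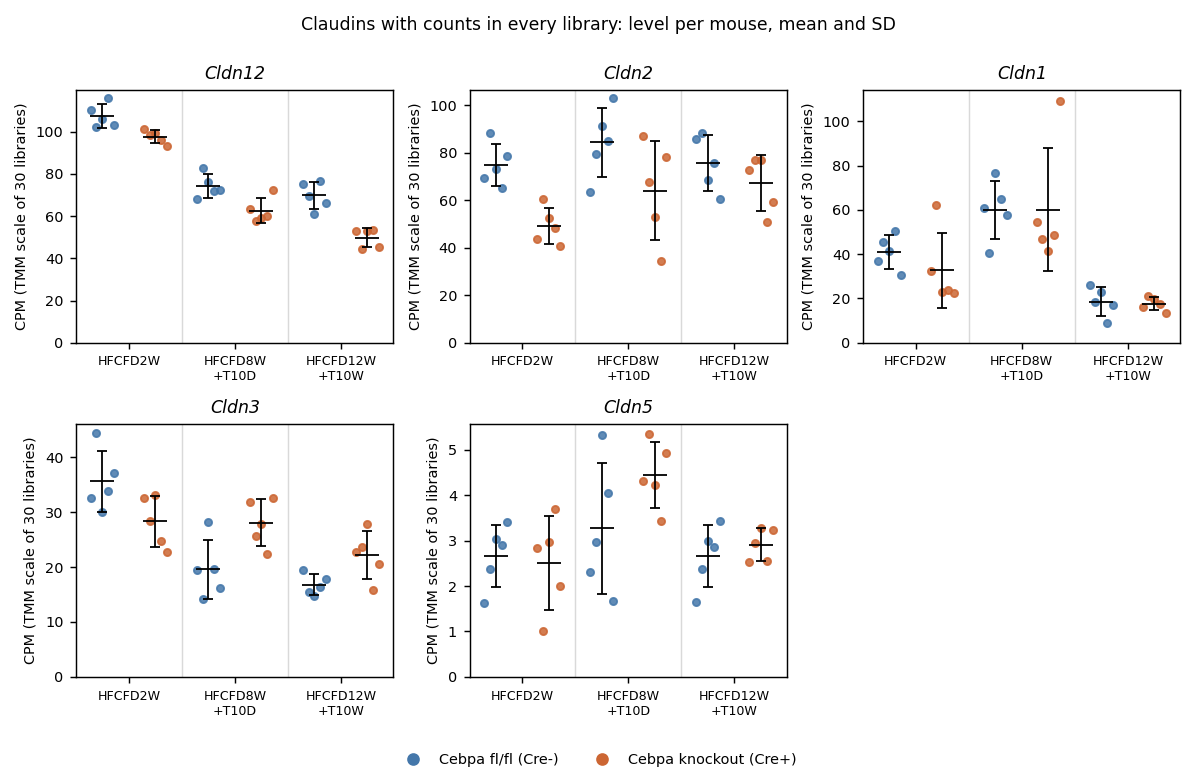
Each point is the CPM of a claudin in 1 mouse (vertical axis, CPM on the TMM scale of 30 libraries), by experiment (horizontal axis), with the mean and SD of 5 mice in black. *Cldn2* in HFCFD2W and *Cldn12* in HFCFD2W and HFCFD12W+T10W separate by genotype, while *Cldn1* is lowest in both genotypes of HFCFD12W+T10W.

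Counted over the members, 0 of 5 tested claudins were higher and 1 of 5 was lower in Cre+ livers of HFCFD2W, where 8.6% and 8.09% of 11068 genes tested were. In HFCFD8W+T10D 1 of 5 was higher and 0 lower, against 10.3% and 6.85% of 11990 genes. In HFCFD12W+T10W 3 of 7 were higher and 1 of 7 lower, against 27.4% and 23.8% of 12463 genes. With a fold change over 2 as well, 0, 0 and 2 claudins were higher, where 1.69%, 4.09% and 14.3% of genes were. Among the tested claudins the genotypes were apart for 2 of 5 in HFCFD2W, where this held for 12.5% of genes tested. They were apart for 0 of 5 in HFCFD8W+T10D (11.5% of genes) and for 3 of 7 in HFCFD12W+T10W (39.1% of genes). *Cldn4* and *Cldn7* were near 0 in Cre- livers of HFCFD12W+T10W and entered its test only through the Cre+ livers. With 5 to 7 members tested, these counts are not a result about the claudins as a group.

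**Figure D5:**
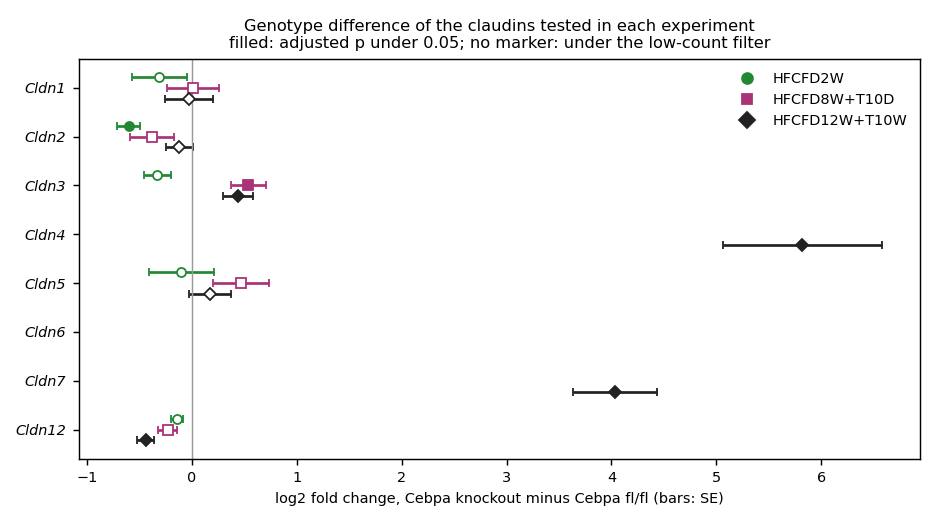
Points give the log2 fold change of Cre+ against Cre- mice (horizontal axis) of each claudin tested in an experiment (vertical axis), with bars for the SE, and filled points passed at an adjusted p under 0.05. *Cldn4* and *Cldn7* in HFCFD12W+T10W lie at 5.82 and 4.03, while all other points lie between -0.60 and 0.54.

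Of the 27 other claudin genes in the table, 1, 1 and 2 had enough counts to be tested in HFCFD2W, HFCFD8W+T10D and HFCFD12W+T10W. *Cldn14*, best known from the inner ear and kidney, was lower in Cre+ livers of all 3 experiments. It fell from 2.47 ± 0.831 to 0.0717 ± 0.103 CPM in HFCFD2W, from 3.51 ± 0.686 to 0.795 ± 0.407 CPM in HFCFD8W+T10D and from 1.89 ± 0.431 to 0.931 ± 0.375 CPM in HFCFD12W+T10W (adjusted p = 9.6e-05, 6.0e-04 and 0.0137). *Cldn8*, a claudin of the distal nephron, was at 1 to 5 counts in *Cebpa* fl/fl and 24 to 48 counts in *Cebpa* ΔHep,ERT2 mice of HFCFD12W+T10W (log2 fold change 3.62, SE 0.37, adjusted p = 6.8e-06). In HFCFD2W and HFCFD8W+T10D it held at most 4 counts in any library. *Cldn8* thus entered the test of HFCFD12W+T10W only through the Cre+ livers and could hardly have been called lower.

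Among 24 partners of claudins in the tight junction, 5 of 21 tested were higher and 1 lower in HFCFD2W. In HFCFD8W+T10D 5 of 22 were higher and 2 lower, and in HFCFD12W+T10W 10 of 24 were higher and 5 lower. Of all genes tested, 8.6%, 10.3% and 27.4% were higher and 8.09%, 6.85% and 23.8% lower, in the same order. The median log2 fold changes of the partners were 0.09, 0.13 and 0.35. *F11r*, which codes for junctional adhesion molecule A, was higher in all 3, from 58.2 to 75, from 43.6 to 67.5 and from 47 to 69.3 CPM. *Lsr*, which marks the corners where cells meet, was higher in HFCFD2W (96.3 to 125 CPM) and HFCFD8W+T10D (116 to 153 CPM). In HFCFD12W+T10W the other most abundant genes that passed were lower, *Cgnl1* from 128 to 89.8, *Ildr2* from 118 to 55.2 and the polarity gene *Pard3* from 54.8 to 42.2 CPM. Of 15 adherens and gap junction genes, 1 was higher and 3 lower in HFCFD2W. HFCFD8W+T10D had 1 higher and 1 lower, and HFCFD12W+T10W had 5 higher and 3 lower, to be read against the same shares of all genes. *Gjb1* and *Gjb2*, the connexins of hepatocytes, fell in HFCFD12W+T10W from 332 to 217 and from 173 to 112 CPM, *Nectin3* was lower, and *Ctnnb1* rose from 195 to 229 CPM. *Cdh1*, which codes for E-cadherin, rose from 10.7 to 34.6 CPM in HFCFD8W+T10D and from 3.95 to 51.6 CPM in HFCFD12W+T10W, the latter value chosen after it was seen.

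Of 12 transcription factors of epithelial and mesenchymal state, 1 of 4 tested was higher in HFCFD2W. HFCFD8W+T10D had 2 of 6 higher and HFCFD12W+T10W 5 of 7, and none was lower. Among all genes tested 8.6%, 10.3% and 27.4% were higher in HFCFD2W, HFCFD8W+T10D and HFCFD12W+T10W. *Ehf* and *Elf3* were near 0 in Cre- livers and entered the tests only through Cre+ livers, so they could hardly be called lower. In HFCFD12W+T10W the same held for *Grhl2* (0.0921 to 1.85 CPM) and for *Grhl1*, which was low in Cre- livers. The counts of higher factors in the 2 inducible experiments thus lean upward by design. *Ehf* rose from 0.201 to 2.01 CPM in HFCFD8W+T10D and from 0.497 to 12.6 CPM in HFCFD12W+T10W, and *Elf3* from 0.394 to 4.67 and from 0.234 to 3.98 CPM; both belong to the epithelial branch of the ETS family. *Grhl1*, a Grainyhead-like factor, rose in HFCFD2W (1.14 to 2.32 CPM) and HFCFD12W+T10W (0.762 to 3.6 CPM). *Zeb2*, a repressor of epithelial genes, rose from 11.6 to 23.8 CPM in HFCFD12W+T10W.

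Markers of the other cell types moved as well. Of all genes tested, 8.6%, 10.3% and 27.4% were higher and 8.09%, 6.85% and 23.8% lower in HFCFD2W, HFCFD8W+T10D and HFCFD12W+T10W. Of 15 hepatocyte markers, 1 was higher and 3 lower in HFCFD2W. HFCFD8W+T10D had 5 lower and HFCFD12W+T10W 9 lower, and in the latter their summed level was 80349 to 90498 CPM in *Cebpa* ΔHep,ERT2 against 125663 to 155488 CPM in *Cebpa* fl/fl mice. *Alb*, the albumin gene, fell there from 77545 to 35080 CPM. Of 12 stellate cell markers 1, 3 and 12 were higher and none was lower in HFCFD2W, HFCFD8W+T10D and HFCFD12W+T10W, with the collagen gene *Col3a1* at 45.9 and 468 CPM in the last. Of macrophage markers 2 of 8, 6 of 10 and 6 of 10 were higher, and 2 were lower in HFCFD12W+T10W, where *Csf1r* rose from 87.6 to 142 CPM and *Marco* fell from 89.4 to 17.1 CPM. There *Gpnmb* (1.07 to 48.9 CPM), *Trem2* (0.823 to 14) and the stellate gene *Acta2* (0.963 to 3.97) were low in Cre- livers and entered the test only through Cre+ livers. The same held for *Gpnmb* in HFCFD8W+T10D (0.821 to 17.7 CPM). These genes could hardly be called lower, so the counts of higher markers lean upward by design. The part of the marker shifts in the differences of *Cldn1*, *Cldn2*, *Cldn3* and *Cldn12* was not tested.

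Over the 30 libraries the genes most like each claudin in log2 CPM, by Pearson's r as a description, were as follows. *Cldn1* was closest to *Tjp3* (r = 0.90), *Pde9a* and *Rtp3* (0.85 each), and within groups, on deviations from the 6 group means, r was 0.81 with *Rtp3* and 0.80 with *Tjp3*. *Tjp3* codes for the scaffold protein ZO-3, which binds claudins inside the cell. All libraries share these normalization factors, and r is given over 30 libraries of 6 groups with no test.

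*Cldn4* was closest to *Mmp7* (r = 0.96), *ccdc198* and *Lrrn1* (0.95 each), and within groups to *Mmp7* (0.83), *Plekhs1* and *Bloc1s2* (0.70 each), and *Cldn7* to *Foxj1* (0.96), *Scube3* and *St14* (0.95 each), and within groups to *Sh3pxd2b* (0.75), *Cd63* (0.69) and *Foxj1* (0.68). *Mmp7* codes for the secreted protease matrilysin, and *St14* for matriptase, a protease of epithelial surfaces. Most libraries hold few counts of *Cldn4* and *Cldn7*, so these values over all libraries rest largely on the 5 *Cebpa* ΔHep,ERT2 mice of HFCFD12W+T10W.

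*Cldn3* was closest to *Mad2l2* (r = 0.83), *Csk* and *Lipe* (0.81 each), and within groups to *Snapc2* (0.77), *Tgm1* (0.74) and *Anapc7* (0.72). *Cldn2* was closest to *Inhbe* and *Smad5* (0.77 each) and *Tug1* (0.75), and within groups to *Cd2ap* (0.76), *AI464131* and *Gpatch11* (0.75 each). *Cldn12* was closest to *Dgcr2*, *Tmem183a* and *Slc22a30* (0.96 each), and within groups to *Keg1* (0.73), *Cmtm6* (0.71) and *Slc22a28* (0.70). *Cldn5* had the weakest likeness, to *Asxl1* (0.71), *Dchs1* (0.67) and *Mrps6* (0.66), and within groups to *Btk* (0.69), *Dnase1l1* (0.68) and *Dchs1* (0.65). None of the genes closest to *Cldn5* is on the endothelial list, and *Cldn6* was too low for this comparison.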

How the data were processed

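Liver RNA of 30 male mice was read from TruSeq stranded mRNA libraries. The authors deposited RSEM gene-level expected counts without normalization, and TPM and effective lengths per library. They also deposited a signal table of TMM-scaled counts for 15010 genes. RPKM values were not used. The submitters' processing notes name mm10, Trimmomatic 0.36, STAR 2.5.1, Picard 1.84, RSEM 1.2.22 and DESeq2. All 55450 gene identifiers are those of GENCODE M21.

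Expected counts were rounded to whole numbers (3.25% of all values were not whole). In R 4.3.3 with edgeR 4.0.16, genes were filtered by filterByExpr by genotype, scaled by TMM and tested for genotype, 1 experiment at a time, with quasi-likelihood F tests. P-values were adjusted by Benjamini and Hochberg's method across the genes tested. Differences between experiments and between control groups came from 1 fit of 30 libraries. Claudins under the filter were compared by exact permutation on mean log2(CPM + 0.1), and count ratios carry exact binomial (Clopper-Pearson) intervals. Likeness used log2(CPM + 0.5). Genes named per list were taken from the at most 4 with the highest mean CPM among those that passed, beside all 8 claudins and other claudins that passed. Not every gene this rule allows is named, 1 is not reported here, and *Ecscr* and, in HFCFD12W+T10W, *Cdh1* fall outside it. The members and lists were chosen with earlier results of these data known.

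Alternatives were DESeq2 1.42.0, upper quartile scaling, no filter, the authors' filtered genes, robust fits, limma 3.58.1 on the authors' CPM (pseudocount 1) or on TPM (pseudocount 0.1), a joint fit, a replicate block and leaving out each mouse. Library totals without TMM, and leaving out each mouse from the fit of 30 libraries and from the exact tests, were added after seeing the data. The edgeR test was checked on simulated counts for HFCFD2W and HFCFD12W+T10W, with changes set in well-counted genes only. That check does not cover claudins at a few counts per library, nor the shift in TMM factors. No 2 libraries of a group were alike within counting noise (lowest chi-square per gene 7.45). The labels call the mice biological replicates.

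Whether replicate numbers pair mice was checked by the correlation of same-number mice in their deviations from group means over the 2000 most variable genes. It ran from -0.37 to 0.22, which does not settle whether the numbers mark pairs.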

Additional observations from a re-analysis of the deposited data

Results flagged for a closer look

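In 5 of 47 groups of 5 mice, 1 mouse stood apart from the others by more than Dixon's 95% limit. For normal values chance gives about 1 in 20, a rate that does not hold for genes at a few counts. *Cldn1* was at 62.1 CPM in Cre+ replicate 3 of HFCFD2W and at 109 CPM in Cre+ replicate 5 of HFCFD8W+T10D. *Cldn6* was at 0.811 CPM in Cre+ replicate 4 of HFCFD2W, from 6 counts. *Cldn4* was at 0.148 CPM in Cre- replicate 1 of HFCFD2W and at 0.202 CPM in Cre- replicate 5 of HFCFD12W+T10W, from 1 and 2 counts in groups otherwise at 0. In a group otherwise at 0 any count exceeds the limit, so these *Cldn4* flags carry no information.

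By the test of the difference itself, the genotype effect differed between HFCFD12W+T10W and HFCFD2W for *Cldn7* (2.98 on the log2 scale), *Cldn3* (0.73) and *Cldn12* (-0.35), and between HFCFD8W+T10D and HFCFD2W for *Cldn3* (0.85). The *Cldn12* difference did not pass with upper quartile scaling (-0.22, adjusted p = 0.112), with library totals or on TPM. *Cldn4* (7.34, adjusted p = 0.0752) passed by DESeq2 and by limma on TPM. The Cre line, the diet time and the tamoxifen time differ together between these experiments, and their parts cannot be told apart.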

How the results depend on the processing

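In HFCFD8W+T10D 1 of 5 claudins tested passed, *Cldn3*. Fits that also tested *Cldn4* and *Cldn7* called 3 without the low-count filter, 4 in the joint fit and 2 with the authors' filtered genes, where *Cldn3* was lost (adjusted p = 0.0566). The count was 0 with limma on TPM, at an adjusted p under 0.01, or with a fold over 2. It ran from 0 to 2 over the fits without 1 mouse. With a fold over 2 the count was 0 in HFCFD2W and 2 in HFCFD12W+T10W. In HFCFD2W it ran from 1 to 2 over the fits without 1 mouse, and for claudins below the filter from 0 to 1 there and from 1 to 2 in HFCFD8W+T10D. At an adjusted p under 0.01, 0 effects differed between HFCFD12W+T10W or HFCFD8W+T10D and HFCFD2W, and by limma on TPM 1 differed between HFCFD12W+T10W and HFCFD8W+T10D.

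Directions turned only for differences that had not passed, other than 1. The *Cldn12* effect of HFCFD12W+T10W minus HFCFD2W became 0.0370 with library totals. In HFCFD8W+T10D *Cldn1* became -0.0002 without the filter, -0.0004 with the authors' genes, -0.0682 with limma on the authors' CPM and -0.0486 with the replicate block, and *Cldn12* became 0.0664 on TPM. In HFCFD12W+T10W *Cldn1* became 0.0532 with upper quartile scaling, 0.34 with totals, 0.41 on TPM and 0.0148 with the replicate block, and *Cldn2* became 0.24 with totals and 0.23 on TPM. The difference of the *Cldn3* effects of HFCFD12W+T10W and HFCFD8W+T10D became 0.0941 with totals and 0.0280 on TPM. Without 1 mouse, *Cldn1* ran from -0.33 to 0.12 in HFCFD8W+T10D and from -0.22 to 0.10 in HFCFD12W+T10W, and *Cldn5* from -0.29 to 0.11 in HFCFD2W. The cause was not tested beyond the scaling itself. Same-number mice did not deviate together, so the numbers were not treated as pairs, though weak correlations cannot exclude pairing. With the replicate block the *Cldn7* effect of HFCFD12W+T10W minus HFCFD2W was 3.11 (adjusted p = 0.0584) and no longer passed, and HFCFD2W had 374 genes higher and 350 lower, against 952 and 895. The joint fit gave 1976 higher and 1541 lower in HFCFD8W+T10D, against 1231 and 821.

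Claudins at a few counts per library, *Cldn4*, *Cldn6* and *Cldn7*, are limited by depth. The exception is *Cldn4* and *Cldn7* in the Cre+ livers of HFCFD12W+T10W, where *Cldn6* held only 9 to 13 counts per library.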
